A study of Mus musculus with 60 samples.

Results

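The uncoupling carrier genes are a branch of the mitochondrial carrier family SLC25. The members described here are Ucp2 (uncoupling protein 2), Slc25a14 (also called Ucp5 or BMCP1), Slc25a27 (Ucp4) and Slc25a30 (KMCP1). They are 4 of the 18088 genes in the deposited table, matched by gene identifier to GENCODE M21 symbols. The family was selected on the drug minus vehicle values of Ucp2 and Slc25a27, which were higher with drug in these same libraries. Their drug minus vehicle differences are therefore given as a description, with no test. Tests are kept for genotype and sex, which did not choose the members. Each genotype comparison within a treatment shares its libraries with the drug comparisons that Ucp2 and Slc25a27 were chosen on. The genotype-by-drug interactions are made of the drug differences themselves, and the sex-by-drug terms of those differences taken in each sex.

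Mitochondrial carriers sit in the inner membrane and move metabolites and protons between the cytosol and the matrix. Uncoupling proteins are best known from brown fat, where Ucp1 lets protons back into the matrix and turns the gradient into heat. Their relatives in brain are present at much lower levels, and whether they uncouple respiration there is debated. Ucp2 is known for limiting reactive oxygen species and for moving small carbon acids out of mitochondria, and its transcription responds to fatty acids through PPAR receptors. Slc25a14 and Slc25a27 are known as carriers of neurons and other brain cells, and Slc25a30 as a carrier first described in kidney.

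The libraries came from the prefrontal cortex of C57BL/6J mice of both sexes at postnatal day 25. Some animals were WT, with no engineered allele, and the others carried 1 copy of the C456Y allele of Grin2b, an NMDA receptor subunit gene (Het). Nursing mothers passed vehicle, fluoxetine (a serotonin reuptake inhibitor) or lithium (a mood stabiliser) to the pups in milk from postnatal day 3 to 24, so every group, vehicle included, was dosed through its mother. The 6 genotype-by-treatment groups had 10 libraries each, 5 female and 5 male, 60 in all. The labels number the replicates and do not name animals or litters, so p-values measure the spread between these samples, which may be technical. The allele changes an amino acid, which expression values do not read. The values, called normalised read counts here, are reads per gene divided by a size factor of the library.

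Each library held 23901635 to 37769417 reads, and the members had 138 to 1746 reads each per library. Neuronal markers were high in every library, with Slc17a7, the glutamate transporter of excitatory neurons, at 38827.8 to 68011.8. Summed markers of striatal neurons varied most within WT lithium libraries, from 3385.9 to 24352.7. Those of olfactory bulb and immature neurons varied widely in several groups. They ran from 2635.3 to 16552 in WT vehicle, 2543.8 to 16288.8 in Het vehicle and 3057.7 to 15433.4 in Het fluoxetine libraries. Some libraries stood apart. The mean log2 level of 16 pseudogenes was 1.78 to 2.60 in 9 of the 10 Het fluoxetine libraries and 3.15 in WT vehicle female 2, against at most 7.14 in the other 50, none of them under 4.6. The 16 were picked for a strong difference between Het and WT under fluoxetine, so a split along that group follows from the choice. Those 9 libraries hold all 5 Het fluoxetine females, so this split and the Het fluoxetine group can hardly be told apart. In WT lithium male 5, deviations of genes from their usual level fell with GC content (r = -0.49 across genes, which are not independent replicates), the lowest of all libraries, and WT vehicle female 2 came next at -0.36. The Het fluoxetine libraries ranged from -0.31 to -0.10, with no overlap with the WT fluoxetine libraries at -0.04 to 0.24. The Het vehicle libraries ranged from -0.14 to 0.21.

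Each member has a distinct place in the genome (GRCm38, GENCODE M21). Ucp2, ENSMUSG00000033685, lies on chromosome 7 at chr7:100493337-100502020 on the plus strand, downstream of its relative Ucp3. Slc25a14, ENSMUSG00000031105, lies on the X chromosome at chrX:48623413-48662294 on the plus strand. The gene Slc25a27, ENSMUSG00000023912, occupies chr17:43641891-43667214 on the minus strand. Slc25a30, ENSMUSG00000022003, occupies chr14:75760117-75787037 on the minus strand. All are protein-coding. The transcripts of Ucp2 are the richest in GC of the 4, at 55%, above those of 78.5% of genes. Slc25a27 has 49.8%, Slc25a14 47.6% and Slc25a30 45.4%, against a median of 49.4% over all genes.

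The sequences upstream of the start sites are shown for Ucp2 and Slc25a14, because these members went in opposite directions between libraries and between genotypes under fluoxetine. They are RefSeq promoter entries on GRCm38.p6, cut at the base before the GENCODE start and read 5′ to 3′ on the gene's strand. Slc25a14 had 3 entries, and only the one starting farthest upstream was read. Capitals mark a GC box (GGGCGG or its complement CCGCCC) in Ucp2, chr7:100493108-100493336, and an E-box (CACGTG) in Slc25a14, chrX:48623198-48623412.
Ucp2: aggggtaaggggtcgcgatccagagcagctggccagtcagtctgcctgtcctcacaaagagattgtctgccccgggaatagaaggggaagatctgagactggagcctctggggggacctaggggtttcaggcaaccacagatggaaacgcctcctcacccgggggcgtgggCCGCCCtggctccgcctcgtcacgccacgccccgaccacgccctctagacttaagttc
Slc25a14: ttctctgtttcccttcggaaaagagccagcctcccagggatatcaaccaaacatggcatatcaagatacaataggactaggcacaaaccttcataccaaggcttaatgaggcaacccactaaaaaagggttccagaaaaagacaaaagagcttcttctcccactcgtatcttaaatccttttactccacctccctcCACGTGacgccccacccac
The Ucp2 stretch is 63.3% GC and the Slc25a14 stretch 46.5%, against a median of 52.4% over 250-base promoter windows. Within 32851 such windows, 32.7% held a GC box and 6.02% an E-box on either strand. Slc25a30 held a GC box and a CCAAT box (33.8% of windows). None of the 3 stretches held a TATA box (TATAAA, 12.4%), a cAMP response element (TGACGTCA, 1.55%), a PPAR direct repeat (0.0335%) or a full glucocorticoid response element (0.00913%), all searched on both strands. A match or its absence describes these letters only. Slc25a27 had no entry.

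Slc25a14 and Slc25a27 were the most abundant members. Per kilobase of the longest transcript, Slc25a14 had a median of 534 normalised reads (439 to 739 over 60 libraries) and Slc25a27 a median of 455 (392 to 572). Ucp2 had 198 (145 to 278) and Slc25a30 58.7 (44.8 to 76.7). The ranges of Slc25a14 and Slc25a27 overlapped, while those of Ucp2 and Slc25a30 lay apart from each other and from both. Ucp3, the muscle form, had a median of 18.9 per kilobase, and no gene of the deposited table carried the symbol Ucp1.

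**Figure D1:**
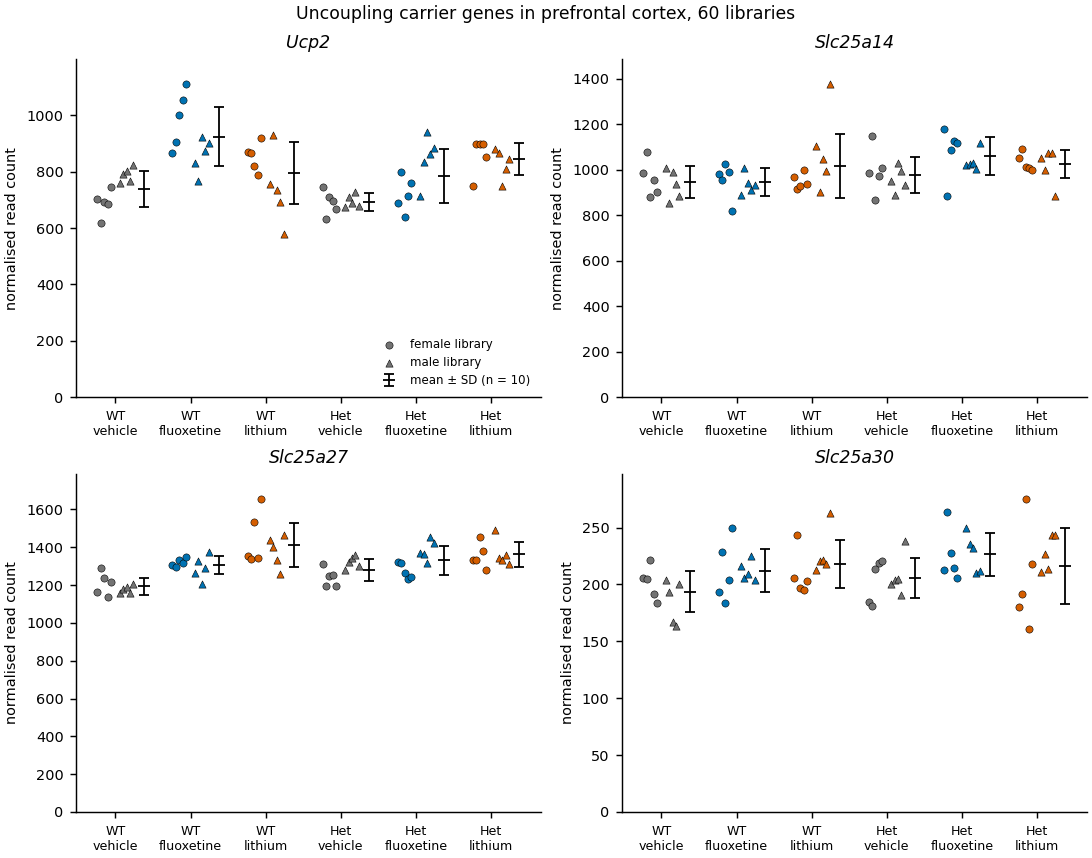
Normalised read counts (vertical axes, from 0) of the 4 members in the 6 genotype-by-treatment groups; circles are female and triangles male libraries, and the bar beside each group is the mean ± SD (n = 10). Slc25a27 was tightest around its means, and Ucp2 ranged from 577.3 to 1110.1 over the 60 libraries.

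Ucp2 had its highest mean with fluoxetine in WT mice. With vehicle, the WT libraries ran from 619.4 through a median of 752.6 to 824.9, and with fluoxetine from 766.4 through 903.4 to 1110.1. Of the 10 WT fluoxetine libraries, 9 lay above the highest WT vehicle library. The mean went from 739.1 ± 63.4 to 923.3 ± 104.3 (SD, n = 10 each), a difference of 0.32 (SE 0.05) on the log2(value + 1) scale. The plot of all libraries shows that the females carried the upper end: WT fluoxetine females had 866.9 to 1110.1 and males 766.4 to 923.5.

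In Het mice Ucp2 separated most clearly with lithium. The Het vehicle libraries had 633.7, 693.6 and 745.8 as lowest, median and highest, and the Het lithium libraries 749.9, 858.2 and 898.6. All 10 Het lithium libraries lay above all 10 Het vehicle libraries, with a difference of 0.28 (SE 0.05). Fluoxetine in Het mice gave 638.9, 779.3 and 941.1, a difference of 0.17, and 6 of 10 libraries lay above the highest Het vehicle library. With a correction for GC content this difference was 0.285, and the lowest over the 11 alternative ways of processing was 0.11. In WT mice, lithium gave 577.3, 803.5 and 929.9, with a difference of 0.10 and 4 of 10 libraries above the vehicle range. WT lithium male 5 held the lowest of these values, and without it the WT lithium difference was 0.14. Without WT lithium male 2 it was 0.052.

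Slc25a27 was higher with lithium in WT mice. The WT vehicle libraries ran from 1135.1 through 1184.0 to 1291.7 and the WT lithium libraries from 1257.7 through 1379.0 to 1657.0. In both sexes taken alone the WT lithium and WT vehicle ranges did not overlap. The log2 difference was 0.24 (SE 0.03), the largest of this member's drug differences. With fluoxetine the WT libraries ran from 1204.2 through 1309.8 to 1373.9, a difference of 0.13, and 8 of 10 lay above the vehicle range. The Het differences were smaller, at 0.05 with fluoxetine (1230.2, 1319.8 and 1457.1) and 0.09 with lithium (1280.2, 1338.3 and 1490.6), over Het vehicle values of 1193.8, 1288.8 and 1361.7. With model terms for the libraries low in pseudogenes or without a read of the pseudogene Rps6-ps4, the Het fluoxetine difference was -0.010 or -0.013.

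Slc25a14 had smaller differences in WT mice. WT vehicle libraries had 852.9, 946.4 and 1078.2, WT fluoxetine libraries 816.7, 947.4 and 1024.7, and WT lithium libraries 901.8, 980.8 and 1376.0. The differences were -0.0022 with fluoxetine and 0.09 with lithium (SE 0.05 each). The highest value of Slc25a14, 1376.0, was again WT lithium male 5, the library with the lowest Ucp2, and without it the lithium difference was 0.05. In Het mice vehicle gave 865.9, 980.0 and 1149.4, fluoxetine 885.6, 1057.2 and 1179.5 (difference 0.12), and lithium 885.0, 1032.4 and 1092.6 (difference 0.07). The Het fluoxetine difference was 0.070 with the GC correction and 0.005 with the pseudogene term, and the Het lithium difference was 0.046 without Het vehicle female 3. All these ranges overlapped.

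Slc25a30, the least abundant member, had higher means with either drug in both genotypes, by amounts close to its spread. WT vehicle libraries had 163.2, 196.6 and 221.4, and the differences were 0.13 with fluoxetine (183.5, 207.1 and 249.3) and 0.17 with lithium (195.2, 214.9 and 262.6). Het vehicle libraries had 181.2, 204.4 and 238.1, and the differences were 0.14 with fluoxetine (205.9, 220.8 and 263.7) and 0.06 with lithium (160.7, 215.8 and 275.3), each with an SE of 0.07. Without Het lithium female 3 the lithium difference in Het was 0.007, and without Het lithium female 4 it was 0.104. The fluoxetine difference in Het was 0.064 with the GC correction and 0.213 with the Rps6-ps4 term. Among single-sex comparisons the WT lithium males stood above the WT vehicle males without overlap, at 212.3 to 262.6 against 163.2 to 204.3.

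**Figure D2:**
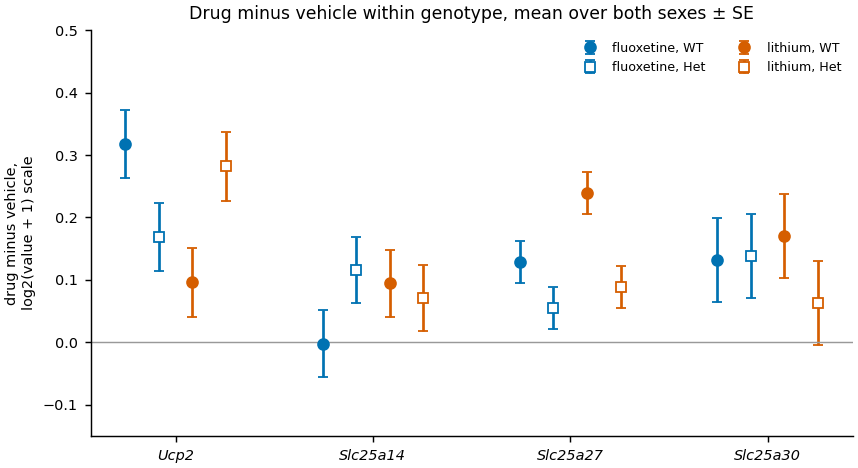
Drug minus vehicle on the log2(value + 1) scale (vertical axis) for each member, averaged over both sexes; points are the fitted differences and bars their SE, blue for fluoxetine, orange for lithium, filled for WT and open for Het. Ucp2 was farthest from 0 with fluoxetine in WT (0.32) and lithium in Het (0.28), and Slc25a27 with lithium in WT (0.24).

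At a Benjamini-Hochberg adjusted p below 0.05 in limma's moderated test, 8.43% of 17810 genes passed with fluoxetine in WT, 19.2% with lithium in WT, 39% with fluoxetine in Het and 0.983% with lithium in Het. The members are not read against these shares, since these comparisons chose the family. The 2 comparisons within a genotype share their vehicle libraries. Ordered by mean, Ucp2 ran Het vehicle (693.6), WT vehicle (739.1), Het fluoxetine (784.1), WT lithium (794.6), Het lithium (844.5) and WT fluoxetine (923.3). Each neighbouring pair in that order differed by less than the larger SD of the pair, and so did each neighbouring pair for Slc25a14 and Slc25a30. For Slc25a27 only the lowest step exceeded it, WT vehicle at 1194.0 ± 46.1 against Het vehicle at 1280.8 ± 57.0.

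Markers of other cells moved with the drugs too, and in bulk tissue fewer cells of a type and less RNA per cell cannot be told apart. With lithium in WT, where 19.2% of all genes passed, 11 of 12 microglial markers and 8 of 10 endothelial markers fell. So did 7 of 8 markers of pericytes and smooth muscle, 5 of 7 of meningeal fibroblasts, 5 of 9 of astrocytes and 3 of 6 of oligodendrocyte precursors. The summed microglial level was 9520.9 to 13182.2 with lithium against 12851.0 to 15130.0 with vehicle. The summed endothelial level was 7354.2 to 10034.2 against 9546.6 to 11793.8. With fluoxetine in WT, 5 of 10 endothelial and 0 of 12 microglial markers fell, and the endothelial level was 8087.3 to 12579.9. Lithium in Het lowered 1 of 10 endothelial and 0 of 12 microglial markers. No marker of either list was at 0 in all libraries. Ucp2 is expressed by microglia and endothelial cells among others, and the part of these cells in the members' values was not tested.

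Genotype was compared within each treatment, to ask whether the Grin2b allele goes with another carrier level. With vehicle, limma called 0 of 4 members (0.59% of all genes passed), 1 of 4 at an unadjusted p below 0.05, and edgeR and DESeq2 called 0. That member was Slc25a27, at 0.10 (SE 0.03, adjusted p = 0.2), and each of 10 Het libraries exceeded the median of WT. The vehicle libraries also entered the drug differences that Ucp2 and Slc25a27 were chosen on, so their values here are not independent of that choice. Among males, Het libraries had 1278.4 to 1361.7 and WT libraries 1159.2 to 1207.4 with no overlap, at 0.16 (SE 0.05, adjusted p = 0.156; 0.118% of genes passed among vehicle males). Vehicle males showed the opposite order in Ucp2, with 675.7 to 727.9 in Het and 760.5 to 824.9 in WT, also without overlap, at -0.18 (SE 0.08, adjusted p = 0.426). The share of all genes whose ranges do not overlap was not counted, here or in the other comparisons, so how common such separation is cannot be said. Vehicle females overlapped in Ucp2, at 633.7 to 745.8 in Het and 619.4 to 744.6 in WT. Neither male difference passed, though Slc25a27 did under 1 of 11 other ways of processing, without 3 libraries of large residuals (0.163, adjusted p = 0.0442), and these within-sex comparisons were added after the values were seen. Slc25a14 differed by 0.04 (adjusted p = 0.863) and Slc25a30 by 0.09 (adjusted p = 0.739).

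With fluoxetine, Ucp2 was lower and Slc25a14 higher in Het than in WT mice, and 39.5% of all genes passed in this comparison, so 2 of 4 members called is near that background. The Ucp2 mean was 784.1 ± 96.7 in Het against 923.3 ± 104.3 in WT (SD, n = 10 each), a fall of 0.24 on the log2 scale (SE 0.05, limma adjusted p = 0.000528), with 9 of 10 Het libraries below the WT median. Slc25a14 had 1059.1 ± 83.8 in Het against 945.3 ± 61.9 in WT, a rise of 0.16 (SE 0.05, limma adjusted p = 0.0123), with 9 of 10 Het libraries above the WT median. Slc25a27 differed by 0.03 (adjusted p = 0.579) and Slc25a30 by 0.10 (adjusted p = 0.274). The p-values of Ucp2 and Slc25a27 are not independent of the choice of the family, which used these libraries. Among these groups 9 of 10 Het libraries are low in pseudogenes. Their correlations with GC content do not overlap either, at -0.31 to -0.10 in Het and -0.04 to 0.24 in WT. With a correction for GC content, Ucp2 differed by -0.08 (adjusted p = 0.329) and Slc25a14 by 0.14 (adjusted p = 0.109), and neither passed. With a model term for the libraries low in pseudogenes, Ucp2 differed by -0.29 (adjusted p = 0.622) and Slc25a14 by 0.05 (adjusted p = 0.977). Those pseudogenes were chosen on this same comparison, so the term is not a separate check of it.

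Split by sex under fluoxetine, Ucp2 separated the genotypes in females. Het females had 638.9 to 800.3 and WT females 866.9 to 1110.1, with no overlap, while Het males (714.7 to 941.1) and WT males (766.4 to 923.5) overlapped widely. In females the log2 difference was -0.45 (SE 0.08, limma adjusted p = 3.71e-05; 33.2% of genes passed), and in males -0.02 (SE 0.08, adjusted p = 0.897; 3.1% passed). With the GC correction the female difference was -0.26 and still passed (adjusted p = 0.0085), and with the term for the libraries low in pseudogenes it was -0.51 (adjusted p = 0.0665). All 5 Het fluoxetine females are low in pseudogenes, and the single Het fluoxetine library that is not, male 1, had the lowest Ucp2 of the 5 males, at 714.7. The test of the difference between the sexes gave 0.43 (SE 0.11) with an unadjusted p of 0.000227 and an adjusted p of 0.15 by limma, where 0% of genes passed. Of 11 other ways of processing 2 called it, DESeq2 (adjusted p = 0.0397) and limma without 3 libraries of large residuals (adjusted p = 0.0426), while edgeR gave 0.121. The within-sex comparisons were added after the values were seen. They reuse the fluoxetine libraries of the drug differences that Ucp2 was chosen on, so their p-values are not independent of that choice.

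**Figure D3:**
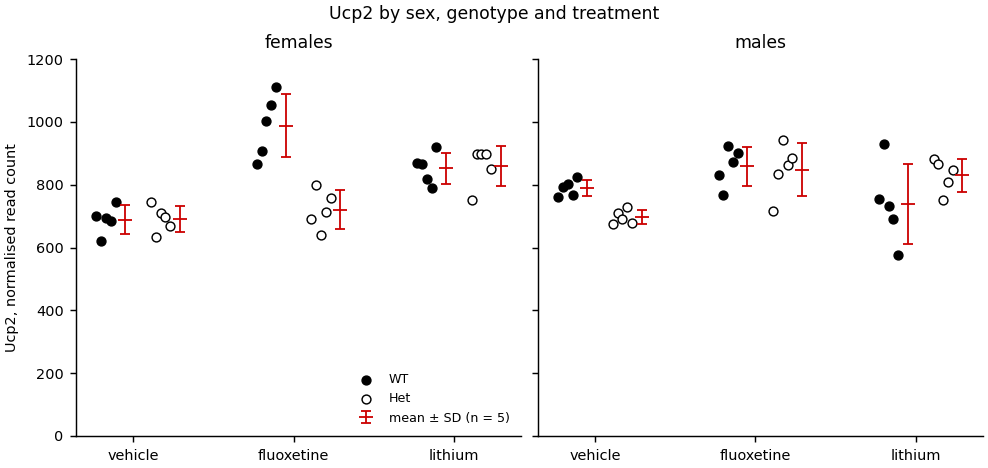
Ucp2 normalised read counts (vertical axis, from 0) in females (left) and males (right) by treatment; filled points are WT and open points Het libraries, and red bars the mean ± SD (n = 5). Among fluoxetine females every WT library (866.9 to 1110.1) lies above every Het library (638.9 to 800.3), and among vehicle males every WT library (760.5 to 824.9) above every Het library (675.7 to 727.9).

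**Figure D4:**
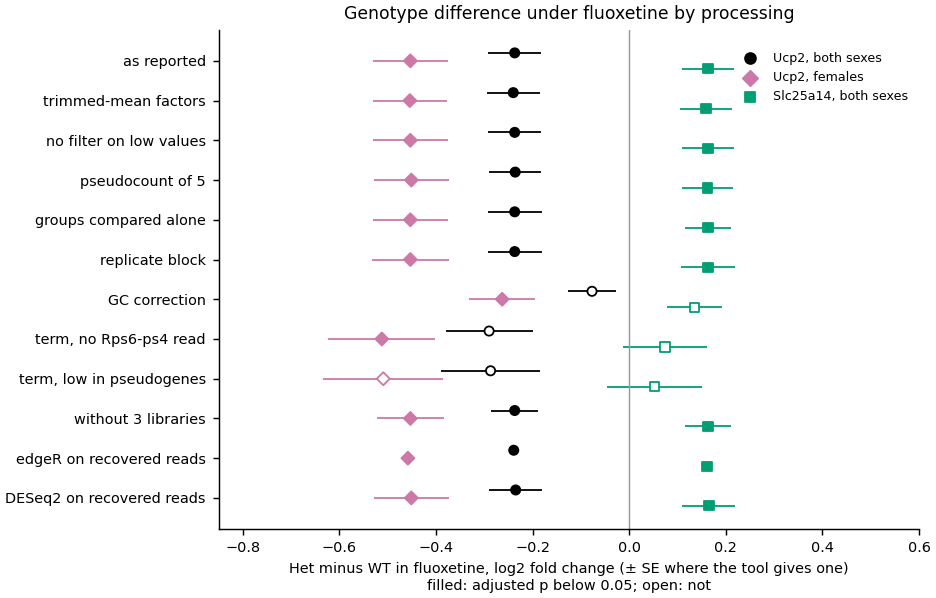
Het minus WT under fluoxetine (horizontal axis, log2 fold change with SE where the tool gives one) for each way of processing (vertical axis); filled symbols have an adjusted p below 0.05. Ucp2 in females stays between -0.51 and -0.26, Ucp2 over both sexes between -0.29 and -0.08, and Slc25a14 between 0.052 and 0.165.

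With lithium, limma called 0 of 4 members between genotypes (0.0281% of genes passed), 0 at an unadjusted p below 0.05, and edgeR and DESeq2 called 0. Ucp2 was 844.5 ± 57.1 in Het and 794.6 ± 109.4 in WT, a difference of 0.10 (95% interval -0.01 to 0.21, adjusted p = 0.496). The intervals of the others were -0.09 to 0.13 for Slc25a14, -0.12 to 0.02 for Slc25a27 and -0.15 to 0.12 for Slc25a30.

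Whether the drug differences themselves depended on genotype was examined by interaction terms. These terms are made of the drug differences that chose the family, so their p-values for Ucp2 and Slc25a27 are not independent of that choice. Under fluoxetine limma called 0 of 4 members (24% of genes passed), 0 at an unadjusted p below 0.05, and edgeR and DESeq2 called 0. Ucp2 came closest, at -0.15 (SE 0.08, adjusted p = 0.154). Under lithium limma called 0 of 4 (0.0674% of genes passed), 2 at an unadjusted p below 0.05, and edgeR and DESeq2 called 0. Those were Slc25a27, whose lithium difference was smaller in Het by 0.15 on the log2 scale (interaction -0.15, SE 0.05, adjusted p = 0.204), and Ucp2, whose lithium difference was larger in Het (0.19, SE 0.08, adjusted p = 0.348). The larger Ucp2 difference with lithium in Het than in WT is thus not shown as a difference between genotypes.

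For sex averaged over all groups, limma called 0 of 4 (0.107% of genes passed), 0 at an unadjusted p below 0.05, and edgeR and DESeq2 called 0, and the 95% intervals ran from -0.07 to 0.06 for Ucp2 and from -0.04 to 0.12 for Slc25a30. Slc25a14, on the X chromosome, differed by -0.001 (95% interval -0.06 to 0.06). The sex-by-fluoxetine term called 0 of 4 (0% of genes passed), 0 at an unadjusted p below 0.05, and edgeR and DESeq2 called 0. The sex-by-lithium term called 0 of 4 (0% of genes passed) and 2 at an unadjusted p below 0.05, Ucp2 at -0.24 (adjusted p = 0.112) and Slc25a30 at 0.19 (adjusted p = 0.221), and edgeR and DESeq2 called 0.

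Within WT mice the order of the sexes in Ucp2 was not the same with and without drug, in comparisons added after the values were seen. WT vehicle females (619.4 to 744.6) lay below all WT vehicle males (760.5 to 824.9), a male minus female difference of 0.20 (SE 0.08, limma adjusted p = 0.917; 0.0674% of genes passed). In the WT fluoxetine group males were lower by 0.20 on the log2 scale (difference -0.20, SE 0.08, adjusted p = 1; 0.0449% passed), and with lithium lower by a like amount (-0.22, SE 0.08, adjusted p = 0.0454; 13.8% passed). The lithium call was lost with the GC correction (-0.096, adjusted p = 0.462), with edgeR (adjusted p = 0.0581) and with DESeq2 (adjusted p = 0.0508), and 4 of 11 other ways of processing kept it. It was kept in 3 of 10 fits without a single library and lost without WT lithium female 1, 2, 3 or 5 or male 3, 4 or 5 (adjusted p of 0.0506 to 0.326, the highest without male 5, at -0.138). The WT female mean was 688.9 ± 45.1 with vehicle and 987.8 ± 101.1 with fluoxetine, and the male mean 789.4 ± 26.4 and 858.7 ± 62.0 (SD, n = 5 each). For lithium the means were 851.7 ± 50.1 in females and 737.5 ± 127.6 in males.

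Whether the drug difference itself depended on sex within WT was tested in the same way. These terms are made of drug differences in the same libraries that Ucp2 was chosen on. The sex-by-fluoxetine term in WT was -0.40 (SE 0.11), with an unadjusted p of 0.000627 and an adjusted p of 0.94 by limma, where 0% of genes passed. The sex-by-lithium term in WT was -0.42 (SE 0.11, limma adjusted p = 0.0227), where 9.64% of genes passed. That call was lost without WT lithium male 5 (-0.34, adjusted p = 0.105), without WT lithium female 5 (-0.39, adjusted p = 0.0883), without WT vehicle female 2 (-0.38, adjusted p = 0.0835), without 3 libraries of large residuals (-0.27, adjusted p = 0.688) and with the GC correction (-0.25, adjusted p = 0.21). In Het mice the same terms were 0.22 for fluoxetine and -0.06 for lithium, with adjusted p of 0.724 and 1.

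Libraries also varied within their groups. After the 12 group means were subtracted, Ucp2 and Slc25a14 went in opposite directions over the 60 libraries (Pearson r = -0.563, adjusted permutation p = 0.00288; Spearman rho = -0.354, adjusted permutation p = 0.0319; 6 pairs). Without WT lithium male 2 and male 5, the libraries farthest from the median of Ucp2, r was -0.386. Slc25a14 and Slc25a30 gave r = -0.275 (adjusted permutation p = 0.11) and rho = -0.384 (adjusted permutation p = 0.0319), and r = -0.363 without 2 libraries. The other 4 pairs had r between -0.029 and 0.144, with adjusted permutation p of 0.718 to 0.942. All values of a library share its depth and its trend with base composition. That trend, the correlation of a library's deviations with GC content, went with Ucp2 (r = 0.347, adjusted permutation p = 0.0425; rho = 0.277, adjusted permutation p = 0.145), and in the other direction with Slc25a14 (r = -0.368, adjusted permutation p = 0.0353; rho = -0.244, adjusted permutation p = 0.145) and Slc25a30 (r = -0.374, adjusted permutation p = 0.0353; rho = -0.220, adjusted permutation p = 0.145). Without WT lithium male 5 and WT vehicle female 2, r fell to 0.161 for Ucp2 and -0.159 for Slc25a14, so those relations rest on these libraries, while Slc25a30 kept -0.350. Slc25a27, whose GC content is near the median, gave r = -0.132 (adjusted permutation p = 0.454; rho = -0.096, adjusted permutation p = 0.527).

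**Figure D5:**
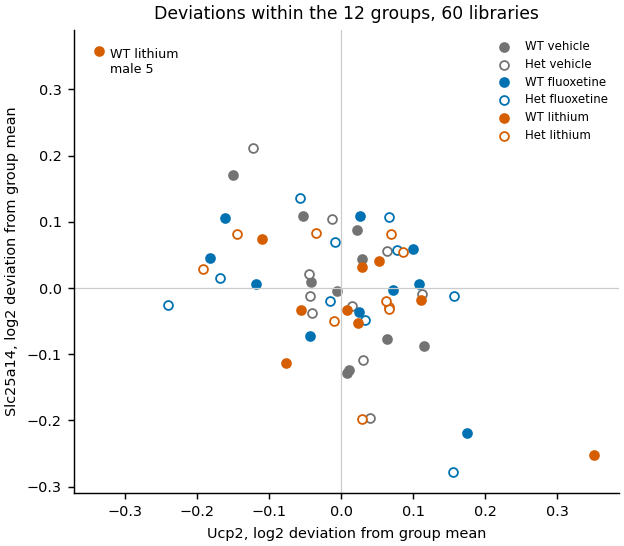
Deviation of Slc25a14 (vertical axis) against that of Ucp2 (horizontal axis) from the mean of the library's group, both log2(value + 1), for 60 libraries coloured by treatment, filled for WT and open for Het. The cloud slopes downward (r = -0.563), and WT lithium male 5 lies at its upper left end.

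The genes most like each member over the 60 libraries are given as a description, since all share libraries, depth and base composition trends. For Ucp2 they were Nrros, a regulator of reactive oxygen species and TGF-beta activation in microglia (r = 0.76, and 0.53 after subtraction of the group means), Mfsd2a, a lipid transporter of the blood-brain barrier (0.76 and 0.56), and Pnpla2, the triglyceride lipase of lipid droplets (0.75 and 0.54). Slc25a14 was most like Elmod1 (0.80 and 0.78), Reps2 (0.80 and 0.75) and Nptn, an adhesion protein of synapses (0.79 and 0.75). Slc25a27 was most like Wipf3 (0.77 and 0.60), Ctns, the lysosomal cystine transporter (0.76 and 0.67), and Inpp5k, a phosphoinositide phosphatase (0.73 and 0.63). For Slc25a30 the values were lower, with Mat2a, which makes the methyl donor S-adenosylmethionine (0.65 and 0.62), Cfap69 (0.64 and 0.63) and Aste1 (0.64 and 0.63). The Ucp2 relations shrank most once group means were removed.

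Other carriers of the SLC25 family gave a backdrop. Of 47 listed, 41 could be tested. With fluoxetine in WT, where 8.43% of all genes passed, limma called 0 of 41, 5 at an unadjusted p below 0.05, edgeR 0 and DESeq2 2. The median log2 difference was 0.0062 against 0.0001 over all genes. With lithium in WT, 9 rose and 5 fell, beside 19.2% of all genes called. Among those that rose were Mtch2, an outer membrane insertase (0.18, SE 0.04, adjusted p = 0.000508), Slc25a12, the neuronal aspartate-glutamate carrier (0.13, SE 0.03, adjusted p = 0.00326), and Slc25a17, a peroxisomal carrier (0.17, SE 0.05, adjusted p = 0.00767). Among those that fell were the citrate carrier Slc25a1 (-0.15, adjusted p = 0.0124) and Slc25a29 (-0.24, adjusted p = 0.0103).

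In Het mice fluoxetine moved the other carriers both ways, with 9 of 41 higher, 16 lower and a median of -0.09, beside 39% of all genes called. Slc25a42, the coenzyme A carrier (-0.30), and Slc25a1 (-0.24) fell, and Slc25a16 (0.16), Slc25a46, an outer membrane protein of mitochondrial dynamics (0.22), and Slc25a32, the folate or FAD carrier (0.20), rose, with adjusted p of 0.000983 or below. Against WT under fluoxetine 8 of 41 were higher and 14 lower, with a median of -0.08, beside 39.5% of all genes called. The smallest p-values in each direction were those of Slc25a32 (0.25) and Slc25a1 (-0.28). With lithium in Het limma called 0 of 41 (7 at an unadjusted p below 0.05, edgeR 0 and DESeq2 2). Between genotypes it called 0 of 41 with vehicle (7 at an unadjusted p below 0.05) and 0 with lithium (8), and edgeR and DESeq2 called 0 in both. Ucp3 ranges overlapped in every drug comparison, with means of 50.5 in WT fluoxetine and 41.5 in WT vehicle libraries.

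Regulators known to act on uncoupling protein transcription were tested as a list of 22. With fluoxetine in WT, where 8.43% of all genes passed, 2 rose: Pparg, a fatty acid-activated nuclear receptor (0.41, SE 0.11, adjusted p = 0.0115), and Nrf1, a factor for mitochondrial genes (0.17, SE 0.05, adjusted p = 0.0173). With lithium in WT (19.2% of all genes) 3 rose, Prkaa2, an AMPK subunit (0.28), Esrrb (0.54) and Esrrg (0.22), both estrogen-related receptors, and 2 fell, Nfe2l2, the oxidative stress factor NRF2 (-0.28), and Foxo3 (-0.14), with adjusted p of 0.0208 or below. With fluoxetine in Het (39% of all genes) 6 rose, among them Ppara (0.50, adjusted p = 6.71e-05) and the coactivator Ppargc1a (0.24, adjusted p = 0.000503), and 5 fell, among them Esrra (-0.34, adjusted p = 9.44e-08) and Ppard (-0.34, adjusted p = 4.45e-06). Against WT under fluoxetine (39.5% of all genes) 7 were higher and 6 lower, with Ppargc1a (0.35) and Esrra (-0.23) again on opposite sides. With lithium in Het limma called 0 of 22 (3 at an unadjusted p below 0.05), and between genotypes 0 with vehicle (1) and 0 with lithium (1); edgeR and DESeq2 called 0 in these comparisons.

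Genes of PPAR signalling and fatty acid oxidation, 24 in all, fell more often than they rose with lithium in WT, by 8 to 1 with a median of -0.16 against 0.0039 over all genes, where 19.2% of all genes passed. The microglial, endothelial, pericyte, fibroblast and astrocyte markers counted above fell in the same comparison, and their part was not tested. Plin2, which coats lipid droplets (-0.49, SE 0.10, adjusted p = 0.00042), Hadhb (-0.25, SE 0.06, adjusted p = 0.00266) and Hadh (-0.25, SE 0.06, adjusted p = 0.00327), enzymes of beta-oxidation, had the smallest p-values among them, and Acsl1, which activates fatty acids, rose (0.14, adjusted p = 0.00364). With fluoxetine in WT (8.43% of all genes) Angptl4, a PPAR target that inhibits lipoprotein lipase, rose (0.57, SE 0.12, adjusted p = 0.00131), and Hadhb (-0.22, adjusted p = 0.0179) and Plin2 (-0.31, adjusted p = 0.0405) fell. Angptl4 rose also with fluoxetine in Het (0.67, SE 0.12, adjusted p = 3.33e-05), with 3 of 24 higher and 5 lower, beside 39% of all genes. Beside these values, 5 of 10 endothelial markers fell with fluoxetine in each genotype, and their part was not tested. Against WT under fluoxetine 2 were higher and 6 lower, beside 39.5% of all genes. With lithium in Het limma called 0 of 24 (3 at an unadjusted p below 0.05), and between genotypes 0 with vehicle (2) and 0 with lithium (2); edgeR and DESeq2 called 0 here.

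The 16 listed antioxidant genes, not all of them mitochondrial, followed no single direction. With fluoxetine in WT (8.43% of all genes) limma called 0 of 16, 1 at an unadjusted p below 0.05, and edgeR and DESeq2 1 each. With lithium in WT (19.2% of all genes) Gclc, which makes glutathione, rose (0.11, adjusted p = 0.0313), and catalase, Cat (-0.23, adjusted p = 2.77e-05), Gpx1 (-0.17, adjusted p = 0.00291) and Txn2 (-0.11, adjusted p = 0.0186) fell. With fluoxetine in Het (39% of all genes) 3 rose, Prdx3 (0.20) with the smallest p, and 5 fell, Gpx4 (-0.28) with the smallest p. Against WT under fluoxetine 6 were higher and 6 lower, beside 39.5% of all genes called. The smallest p was that of the manganese superoxide dismutase Sod2 (0.15) among the higher genes and of Gpx4 (-0.26) among the lower. With lithium in Het limma called 0 of 16 (1 at an unadjusted p below 0.05), and between genotypes 0 with vehicle (3) and 0 with lithium (1); edgeR and DESeq2 called 0. Over the 4 lists together, the 52 calls with fluoxetine in Het became 0 with the term for the libraries low in pseudogenes and 17 with the GC correction. The 55 calls between genotypes under fluoxetine became 0 and 12. The pseudogenes behind the term were chosen on that same genotype comparison.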

How the data were processed

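RNA was sequenced from 60 prefrontal cortex libraries with a stranded kit, per the labels' protocols. The submitters' processing notes list GRCm38, R 3.6.0, Salmon 0.11.2 and DESeq2 1.19.11, and state no role for any. Use of the strand in counting: not given in the sources used here. Deposited values are a signal that is never negative, whole reads divided by 1 size factor per library: dividing by each column's step gave whole numbers, within 0.001, for 100% of values, so these values rather than raw counts were tested.

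Differences were fitted with limma 3.58.1 (R 4.3.3, trend and robust) on log2(value + 1) with a mean for each of 12 groups (48 residual degrees of freedom), over 17810 genes that reached a value of 10 in 5 or more libraries, which all 4 members passed. Benjamini-Hochberg adjustment ran over all genes within a comparison, at 0.05. Fold changes on this scale understate low genes. edgeR 4.0.16 and DESeq2 1.42.0 on the recovered reads, other scalings, pseudocounts and filters, a GC correction (loess, span 0.3), terms for libraries apart and leaving out libraries were alternatives. Correlations across libraries used 100000 within-group permutations, two-sided. The fit was tested on simulated reads, which held no GC trend and no libraries apart, so that test does not bear on these.

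Members and gene lists were chosen with earlier results of these data known. Named genes were the members, the 3 genes most correlated with each, and up to 3 called genes per list, direction and comparison with the smallest p. A gene that this rule names is not reported here. Symbols came from GENCODE M21 (18077 of 18088 identifiers). Precision rests on the reads per gene and on 5 libraries per group.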

Additional observations from a re-analysis of the deposited data

Results flagged for a closer look

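Of 48 member-by-group sets of 5 libraries, 4 held a library whose gap to its neighbour exceeded 0.71 of the set's range, Dixon's limit for 5 values; chance gives about 5% of sets. Slc25a14 in Het fluoxetine males had replicate 5 at 1118.4, above 1004.6 to 1029.6 in the others. For Slc25a27 in Het lithium males, replicate 1 was at 1490.6, above 1312.7 to 1358.9. Slc25a30 in WT lithium females had replicate 2 at 243.0, above 195.2 to 206.0. In WT lithium males Slc25a30 had replicate 5 at 262.6, above 212.3 to 221.6; this library also had the steepest GC trend, the lowest Ucp2 and the highest Slc25a14.

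The lithium difference of Ucp2 differed between WT males and WT females, by -0.42 on the log2 scale (limma adjusted p = 0.0227), in a comparison added after the values were seen. Ucp2 was chosen on drug differences in these same libraries. The adjusted p over 11 other ways of processing was 0.0101 to 0.688, with 7 below 0.05, and over 20 fits without a single library 0.00909 to 0.105, with 17 below 0.05.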

How the results depend on the processing

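Of 528 member values under 11 other ways of processing (48 results), 508 kept their direction and side of the threshold or, for the drug differences, which have no test, moved by less than 1 SD within groups. That SD was 0.123 in Ucp2, 0.120 in Slc25a14, 0.070 in Slc25a27 and 0.148 in Slc25a30, a wide limit beside small drug differences. Slc25a14 with fluoxetine in Het went from 0.12 to as low as 0.01 and still counted as kept. Het minus WT under fluoxetine lost its call in Ucp2 with the GC correction (-0.077), the term for libraries with no Rps6-ps4 read (-0.290) and the term for libraries low in pseudogenes (-0.287), and in Slc25a14 at 0.135, 0.074 and 0.052; the cause was not tested. Slc25a27 in vehicle gained one without the 3 libraries with the largest residuals (0.113, adjusted p = 0.0338). Signs of tested differences changed only where neither value was called: male minus female in Ucp2 (0.004 with GC correction, 0.008 without 3 libraries) and Slc25a14 (0.002 and 0.007 with the 2 terms, 0.000 by edgeR); sex by fluoxetine in Slc25a14 (-0.015 with GC correction, -0.011 without 3 libraries); genotype by fluoxetine in Slc25a14 (-0.005, pseudogene term) and Slc25a30 (-0.058, GC correction); Het minus WT in Slc25a27 under fluoxetine (-0.041 and -0.038 with the 2 terms) and Slc25a30 under lithium (0.007 with GC correction, 0.003 without 3 libraries); and, among added comparisons, Het minus WT in Ucp2 in vehicle females (-0.033 without 3 libraries) and fluoxetine males (0.11, GC correction). Among drug differences, fluoxetine minus vehicle changed sign in Slc25a14 in WT (0.008 and 0.010 with the 2 terms, 0.019 without 3 libraries) and in Slc25a27 in Het (-0.013 and -0.010 with the 2 terms).

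Leaving out single libraries changed signs between -0.018 and 0.025 (Slc25a14, fluoxetine minus vehicle in WT), -0.019 and 0.010 (Ucp2, male minus female), -0.033 and 0.035 (Ucp2, Het minus WT in vehicle females), -0.062 and 0.039 (Ucp2, Het minus WT in fluoxetine males), -0.011 and 0.065 (Slc25a14, Het minus WT in lithium), -0.055 and 0.021 (Slc25a14, genotype by lithium interaction), -0.016 and 0.010 (Slc25a14, male minus female), -0.024 and 0.035 (Slc25a14, sex by fluoxetine interaction), -0.075 and 0.021 (Slc25a30, Het minus WT in lithium) and -0.022 and 0.038 (Slc25a30, genotype by fluoxetine interaction). No call of a member over both sexes was lost or gained that way. Calls over the 4 lists went from 5 to 8 (DESeq2) and 10 (GC correction) with fluoxetine in WT, from 52 to 17 (GC correction), 2 (Rps6-ps4 term) and 0 (pseudogene term) with fluoxetine in Het, from 0 to 2 (DESeq2) and 2 (GC correction) with lithium in Het, and from 55 to 12, 0 and 0 for genotype under fluoxetine.

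Replicate numbers did not pair the libraries: same-numbered deviations had a median r of 0.0004 over 330 pairs, other numbers 0.0008, and 8 of 60 libraries correlated best with their own number. With the replicate block, Het minus WT in Ucp2 under fluoxetine was -0.237, and no call of a member over both sexes changed. Depth limits Slc25a30 most, at 138 to 325 reads per library.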
